A study of Mus musculus with 5 samples.

Results

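The levels of 7 transcription factors that hold mouse embryonic stem cells (ESCs) in the pluripotent state were followed across 5 ESC lines: Pou5f1, Sox2, Nanog, Sall4, Esrrb, Tfcp2l1 and Tbx3. The members were taken by gene name from all non-control probes of the array, which gave 13 probes for the 7 genes, out of 41174 probes that carry 27670 gene symbols or file names. No probe bore the name Tfcp2l1. The 4 probes listed under its older symbol, Tcfcp2l1, were used for it, of which the RefSeq gene table pairs some by accession and the others by that synonym. All 13 probes passed the filter on dim probes, 12 of them were well above background on all 5 arrays, and the exception was the second Tbx3 probe.

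Each line was measured on 1 one-colour Agilent array after Cy3 labelling of its RNA, so the line was the replicate. RF8, labelled wild type, male and 129sv, is the parental line in which the locus was targeted. The other wild-type line, #620-2, and the knock-in line #620-6 were labelled female, and the knock-in lines #757-1 and #757-2 male, all 3 knock-in lines and #620-2 being of the C57BL6/129sv background. The knock-in lines, ECAT11EGFP/EGFP, carry on both alleles an EGFP and puromycin-resistance cassette in place of the coding region of ECAT11 (L1td1). This gene is enriched in ESCs, and its protein resembles ORF1 of the L1 retrotransposon. Each line is 1 clone, all were grown on gelatin in serum medium with LIF, and according to the methods the blastocyst-derived lines were first established on feeder cells. The comparison asked whether ESCs without ECAT11 differ in expression from wild-type ESCs.

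In ESCs, Pou5f1 (Oct4), a POU-domain protein, and Sox2, an HMG-box protein, bind DNA side by side at composite sites in the enhancers and promoters of pluripotency genes, their own among them. Nanog, a homeodomain protein, and Sall4, a zinc finger protein, occupy many of the same sites. Esrrb, an orphan nuclear receptor, Tfcp2l1, a grainyhead-related factor, and Tbx3, a T-box factor, belong to the naive network that is fed by LIF and Wnt signalling, and their loss or gain moves ESCs out of or into the naive state. Levels of Nanog, Esrrb and Tbx3 are known to vary from cell to cell and between culture conditions, while Pou5f1 is held within narrow bounds.

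The promoter of Nanog shows the composite site by which the Pou5f1-Sox2 pair acts on another member, and is printed for that reason. The 200 bases before the first annotated start of Nanog, chr6:122707289-122707488 on the plus strand (RefSeq, GRCm38.p6), read 5′ to 3′ as follows, with the composite motif in capitals.
Nanog promoter: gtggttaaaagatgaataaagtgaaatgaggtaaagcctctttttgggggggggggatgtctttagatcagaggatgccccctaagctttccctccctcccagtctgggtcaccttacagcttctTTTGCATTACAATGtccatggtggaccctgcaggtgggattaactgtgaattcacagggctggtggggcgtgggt
The motif searched, CATTGTNATGCAAA, is a Sox part (CATTGT), 1 free base and the first 7 letters of the octamer (ATGCAAA). It was read on both strands of 32851 promoter windows of 300 bases, 250 before and 50 after each start. It lay on the minus strand, from 75 to 62 bases before the start. It was found in 2 windows, 0.00609% of all, and both are overlapping windows of Nanog, from its pair of annotated starts, that hold the same site. The pattern spells the Nanog site apart from the free base. Its presence there was thus fixed by the choice of pattern, and the share is no measure of how particular such sites are to Nanog. The Sox part alone was present in 12.6% of windows, among them windows of Nanog, Esrrb and Pou5f1. The 7 octamer letters alone were present in 4.63%, among them windows of Nanog and Sox2, and the 8-letter octamer ATGCAAAT in 1.74%, with no member window. These are matches of letters within a short window. Of the members, 5 had a window, and Sall4 and Tbx3 are named only.

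Levels are given as the log2 of a probe's background-corrected intensity over the 75th percentile of its array, so that 0 is the 75th percentile. The percentile ran from 687.5 to 794.4 intensity units over the arrays, and an array held from 21250 to 27144 probes well above background, fewest on the slide of the #757 lines. Saturation was absent. Of the 2 slides used, slide 1 held RF8, #620-2 and #620-6 and slide 2 both #757 lines. ECAT11 itself is not analysed here, since no probe bears its name, so the knock-in was not checked against its target. The sex labels were checked with Ddx3y, a Y-linked gene: its probes were well above background in the 3 lines labelled male and in neither line labelled female. Of 4 Xist probes, 3 followed the labels in being higher in both #620 lines than in the other 3, and 1 did not, being highest in RF8 at -2.49 against -6.64 and -5.84 in the #620 lines. The ESC markers Pou5f1, Sox2, Nanog, Zfp42, Utf1, Dppa5a and Tdgf1 were well above background in all 5 lines. A gene with several probes is described by its brightest probe over the 5 arrays, called the reference probe, with the other probes beside it. Levels of different probes are not comparable with each other, since probes differ in binding. A lower level in a bulk sample can mean fewer cells with the transcript or less of it per cell, which these arrays cannot tell apart.

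Pou5f1, Sox2 and the reference probe of Sall4 were at nearly the same level in the 5 lines, while the second probe of Sall4 spanned 1.85, or 3.61-fold, which 6.13% of probes exceeded. Pou5f1, probed at chr17:33612047-33612107 (mm7, the build of the array files), had a log2 level of 2.56 in RF8, 3.05 in #620-2, 2.87 in #620-6, 2.72 in #757-1 and 2.55 in #757-2. The span of 0.51, or 1.42-fold, was small: 59.6% of probes spanned more, counted over the 20622 that were well above background in every line. Both #620 lines lay above the other 3. Sox2, at chr3:34459231-34459290, had 4.14 in RF8, 4.55 in #620-2, 4.51 in #620-6, 4.67 in #757-1 and 4.55 in #757-2. RF8 was lowest, 0.37 below the next line, and the other 4 lines were at 4.57 ± 0.07 (SD, n = 4). The whole span of Sox2 was 0.54 (1.45-fold), less than in 56.6% of probes.

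The reference probe of Sall4, at chr2:168541487-168541546, had 3.56 in RF8, 3.43 in #620-2, 3.48 in #620-6, 3.95 in #757-1 and 3.82 in #757-2. Here both #620 lines were lowest and both #757 lines highest, within a span of 0.52 (1.44-fold). With 1 array per line there is no spread within a line. The nearest measure of it is the pair of #757 lines, which share genotype, sex label and slide: #757-2 minus #757-1 was -0.17 for Pou5f1, -0.13 for Sox2 and -0.13 for Sall4. Neighbouring lines in the order of Pou5f1 were about as close, while RF8 and the next line for Sox2, and RF8 and #757-2 for Sall4, lay further apart.

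Nanog, Esrrb, Tfcp2l1 and Tbx3 varied more, and RF8 was the lowest line for each. Nanog, at chr6:122750894-122750953, had 2.54 in RF8, 3.96 in #620-2, 4.54 in #620-6, 3.44 in #757-1 and 3.71 in #757-2. The lines stood in the order RF8, #757-1, #757-2, #620-2 and #620-6, and RF8 was 0.91 below the next line. The span was 2.00, or 4.01-fold, and 4.91% of probes spanned more. Among the middle lines, #757-1, #757-2 and #620-2 lay within steps of 0.26 or less, no more than the distance between the #757 lines.

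Esrrb, at chr12:84523822-84523881, had 2.56 in RF8, 3.84 in #620-2, 3.75 in #620-6, 3.35 in #757-1 and 3.62 in #757-2. The 4 blastocyst-derived lines were close, at 3.64 ± 0.21 (SD, n = 4), and RF8 was 0.78 below the lowest of them. The second Esrrb probe, which lies 6320 bases upstream, gave the same order of lines, with a level of -2.99 in RF8 and between -2.52 and -1.95 in the others.

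Tfcp2l1 set RF8 apart most evenly. Its reference probe, at chr1:118545588-118545647, had 0.99 in RF8, 2.76 in #620-2, 2.99 in #620-6, 2.61 in #757-1 and 2.91 in #757-2. The other 4 lines were at 2.82 ± 0.17 (SD, n = 4), 3.55-fold above RF8, and the lowest of them was 1.62 above it. RF8 was the lowest line on each of the other 3 Tfcp2l1 probes too, by 1.71 to 1.87 on the log2 scale. The probes did not agree on the order of the other lines. The probe 4524 bases upstream placed both #620 lines, at -0.29 and -0.11, above #757-1 at -1.13 and #757-2 at -1.63, while on the second probe, for which the files give no position, the 4 lines lay between -0.28 and -0.08.

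Tbx3 varied most. Its reference probe, at chr5:118918450-118918509, had 1.18 in RF8, 4.45 in #620-2, 4.43 in #620-6, 2.27 in #757-1 and 2.94 in #757-2. The lines fell at 3 heights: RF8 lowest, the #757 lines 1.42 above it on average, and the #620 lines a further 1.83 higher and 0.02 from each other. The span was 3.27, or 9.64-fold, and 0.902% of probes spanned more. The second Tbx3 probe, 11732 bases upstream, was well above background in #620-2 and #620-6, at -3.63 and -3.99, and not well above background in RF8, #757-1 and #757-2. The mean of the #620 lines was at least 5.1-fold above the mean of the other 3 lines on it, each of those lines being set to the higher of its measured level and the lowest level well above background on its array. Line by line, the mean of the #620 lines was at least 11.7-fold above RF8, 3.71-fold above #757-2 and 3.06-fold above #757-1.

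**Figure D1:**
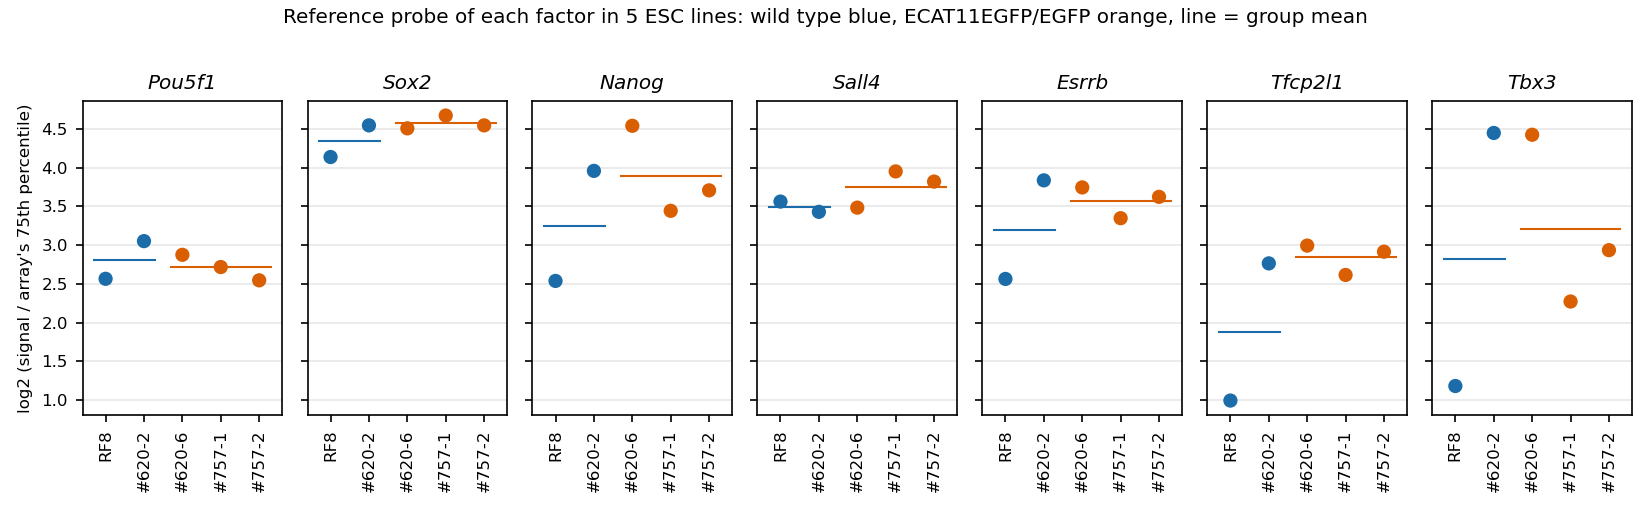
Log2 level of the reference probe of each factor in the 5 ESC lines, 1 array per line, relative to the 75th percentile of the array. Blue points are wild-type lines and orange points ECAT11EGFP/EGFP lines, horizontal lines are group means, and panels are not comparable in height with each other. RF8 is the lowest point for Sox2, Nanog, Esrrb, Tfcp2l1 and Tbx3, and Tbx3 runs from 1.18 in RF8 to 4.45 in #620-2.

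Counted over the members, RF8 was the lowest line on 5 of the 7 reference probes and on all 6 other probes. Over all probes well above background on the 5 arrays, RF8 was lowest on 21.3%. It was more than 2-fold below every other line on 2 reference probes, those of Tfcp2l1 and Tbx3, and on 0.747% of all such probes. Both #620 lines lay above the other 3 on 4 reference probes (Pou5f1, Nanog, Esrrb and Tbx3) and below them on that of Sall4. Of all such probes, 17.5% placed the #620 lines on top, and 4837 of 20622 placed them lowest. The counts of RF8 lowest and of the #620 lines highest were the same with normexp background correction, quantile normalization or the deposited log2 table. The 7 genes were chosen for their function, with earlier results of these data known. These counts describe them with no test, since RF8 is a single line. RF8 was also the line of the 129sv strain and the parental line, and these cannot be told apart here.

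For Nanog, Esrrb, Tfcp2l1 and Tbx3 the 2 wild-type lines were further apart than the lines of either numbered pair. Between #620-2 and RF8, 4 of 7 reference probes differed by more than 2-fold, those of Nanog (1.42 on the log2 scale), Esrrb (1.27), Tfcp2l1 (1.77) and Tbx3 (3.27), against 10.3% of probes well above background in both lines. Both lines were on slide 1. Between #757-2 and #757-1 the widest difference of a reference probe was 0.66, in Tbx3, and 0 of 7 passed 2-fold, against 1.82% of probes. Between #620-6 and #620-2, which differ in ECAT11 genotype, the widest was 0.58, in Nanog, and again 0 of 7 passed 2-fold, against 7.1% of probes.

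**Figure D2:**
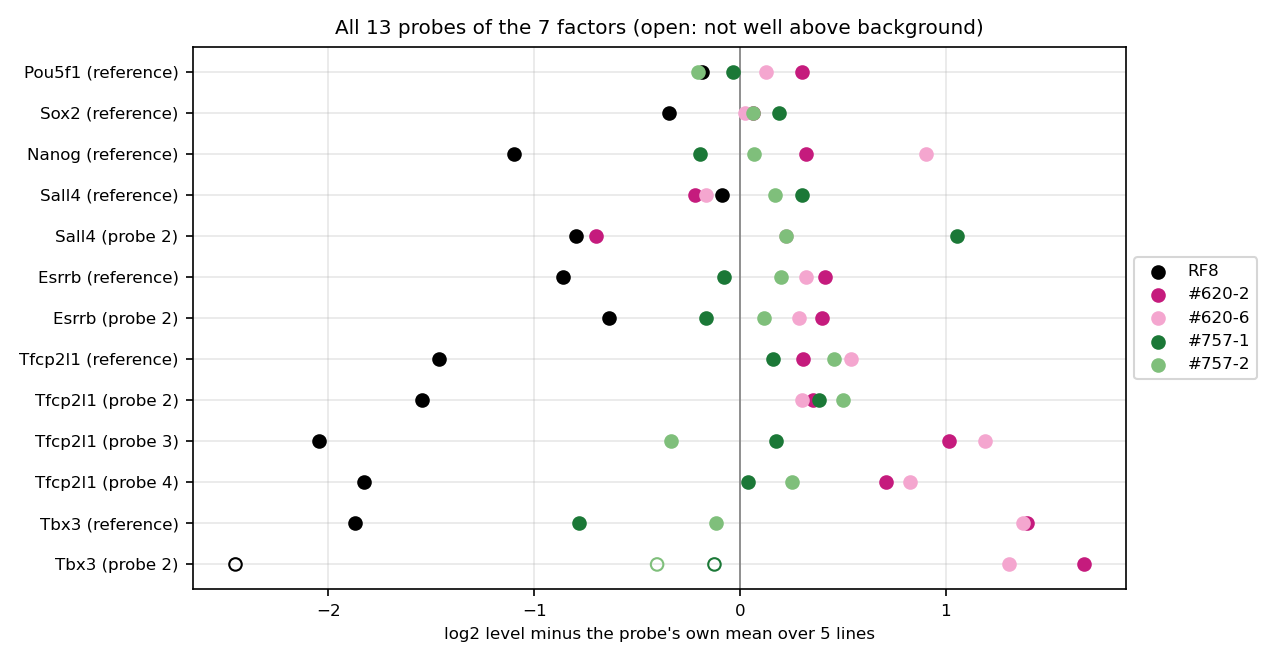
Log2 level of each of the 13 probes in each line, minus that probe's own mean over the 5 lines. Open symbols are not well above background. RF8 (black) is leftmost on 11 probes, and the #620 lines (pink) are rightmost on both Tbx3 probes and on the reference probe of Nanog.

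Between genotypes no factor was called. The fit was made with limma over the 28972 probes that were Present on at least 1 array, with Benjamini-Hochberg adjustment, and probes past 2-fold with an adjusted p below 0.05 were called. Of all probes, 0.00345% (1 probe) were called, and 0 of the 13 member probes. At an unadjusted p under 0.05, 7.6% of all probes and 1 member probe passed. With the methods' t-test, 0 member probes were called after adjustment.

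The reference probe of Pou5f1 averaged 2.81 ± 0.34 (SD, n = 2) over the wild-type lines and 2.71 ± 0.16 (SD, n = 3) over the knock-in lines. The difference, knock-in minus wild type, was -0.10 on the log2 scale with a 95% interval from -0.68 to 0.49 (limma, adjusted p = 0.972). For Sox2 it was 0.23 (interval -0.27 to 0.74, limma adjusted p = 0.875), from 4.34 ± 0.29 (SD, n = 2) to 4.58 ± 0.09 (SD, n = 3). For Sall4 it was 0.26 (interval -0.28 to 0.79, limma adjusted p = 0.872). For these 3 reference probes the intervals left out a 2-fold difference in either direction with all 5 lines, though not for the second probe of Sall4. Without RF8 the intervals of Sall4 (-0.47 to 1.12) and Pou5f1 (-1.003 to 0.325) reached a 2-fold difference, and the difference of Sox2 fell to 0.029. Without #620-2 the interval of Sox2 (-0.126 to 1.002) reached a 2-fold difference too.

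The intervals of the 4 variable factors were wide. Nanog had a mean of 3.25 ± 1.01 (SD, n = 2) for the wild type, from the distant RF8 and #620-2, and of 3.90 ± 0.57 (SD, n = 3) for the knock-in, a difference of 0.65 with an interval from -0.83 to 2.13 (limma, adjusted p = 0.892). Esrrb differed by 0.37 (interval -0.74 to 1.48), Tfcp2l1 by 0.96 (interval -0.51 to 2.44) and Tbx3 by 0.40 (interval -2.73 to 3.52). Without RF8 the differences of Nanog, Esrrb and Tbx3 turned to -0.062, -0.26 and -1.24, and without #620-6 that of Tbx3 turned to -0.21. The difference of Tfcp2l1 was 0.077 without RF8 and 1.85 without #620-2. Differences of 2-fold and more in these 4 factors lay within the intervals of the fit over 5 lines.

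The genotype difference of the reference probes was small within the #620 lines, which share slide, strain and sex label. There the knock-in line #620-6 minus the wild-type line #620-2 gave -0.18 for Pou5f1, -0.04 for Sox2, 0.05 for Sall4, -0.09 for Esrrb, 0.23 for Tfcp2l1, -0.02 for Tbx3 and 0.58 for Nanog. The second probe of Sall4 gave 0.93 in this pair, and -0.83 for #757-2 minus #757-1. Among the lines labelled male, the mean of the #757 lines minus RF8 gave 0.07 for Pou5f1, 0.47 for Sox2, 0.32 for Sall4, 0.92 for Esrrb, 1.77 for Tfcp2l1, 1.42 for Tbx3 and 1.04 for Nanog, where slide and strain differ as well as genotype. In a fit with both labels, the genotype effect in the #620 lines minus that in the lines labelled male ran from -1.54 for Tfcp2l1 to -0.24 for Pou5f1 over the reference probes. That fit cannot decide whether the effects differ. Of the 4 combinations of genotype and sex label, 3 hold 1 line, and the spread comes from the #757 pair alone.

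**Figure D3:**
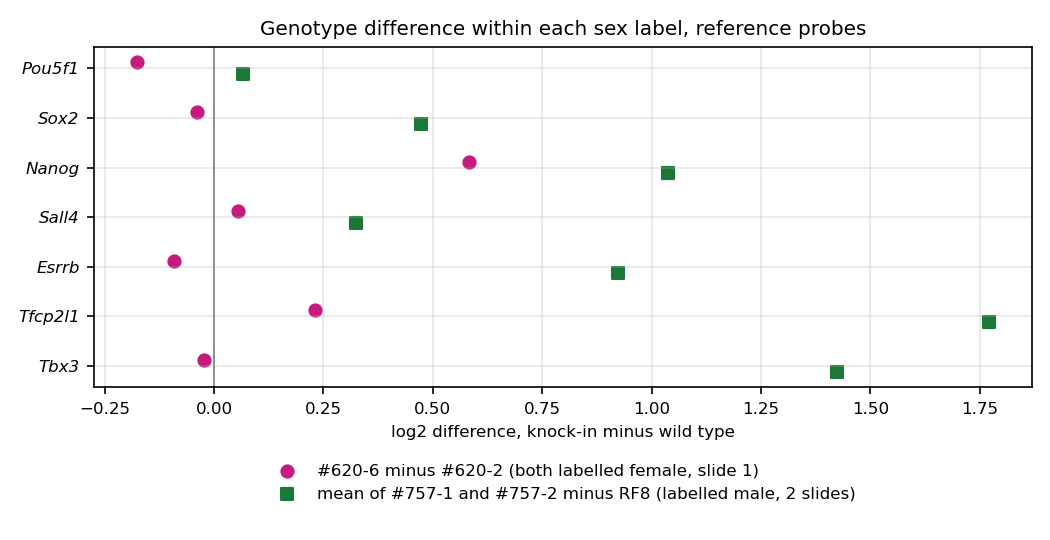
Knock-in minus wild-type difference of each reference probe, on the log2 scale, within the lines labelled female (circles, #620-6 minus #620-2) and within the lines labelled male (squares, mean of #757-1 and #757-2 minus RF8). Circles lie between -0.18 and 0.58, and squares reach 1.77, for Tfcp2l1.

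The second probe of Sall4 stood apart from its reference probe. It lies 3839 bases upstream, at chr2:168545326-168545385 on the minus strand, and the first 30 of the 60 bases of both probes are shown because they gave different patterns over the lines.
Sall4 reference probe: tgcgaccacccaagtattgccaggtcttaa
Sall4 second probe: gcctccctccaacatttatccgagcacagc
The longest stretch that the full probes share is 5 bases. The second probe had -1.24 in RF8 and -1.14 in #620-2, against -0.21 in #620-6, 0.62 in #757-1 and -0.22 in #757-2. The genotype groups did not overlap on it, as they did not on 23.1% of all probes well above background, and it was the 1 member probe of 13 with this pattern. The difference was 1.25 with an interval from 0.41 to 2.09, which was not called (limma, adjusted p = 0.495). With slide as a block it was 0.97 with an interval from -0.25 to 2.19. The reference probe of Sall4 differed by 0.26, so the probes of this gene gave genotype differences of different size. The annotation of build mm7 is not used here, so the exon or UTR that each probe lies in is not given.

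The same question was asked of the sex labels, which split the lines into the #620 pair and the other 3. This split cannot be told apart from the line number. Of all probes, 0.342% (99 probes) were called, and 0 of the 13 member probes. At an unadjusted p under 0.05, 18% of all probes passed, and 2 member probes, both of Tbx3. The second Tbx3 probe was well above background in the #620 lines alone and entered the fit only through them. The reference probe of Tbx3 was at 4.44 ± 0.02 (SD, n = 2) in the lines labelled female and 2.13 ± 0.89 (SD, n = 3) in those labelled male. The difference, female minus male, was 2.31 on the log2 scale, or 4.95-fold, with an interval from 0.88 to 3.74, and it failed the adjustment (limma, adjusted p = 0.153). Both #620 lines lay above the other 3 on both Tbx3 probes, as they did on 17.5% of all probes well above background on the 5 arrays. The 2 Tbx3 probes, whose first 30 of 60 bases are given because this is the widest difference among the members, share no stretch longer than 7 bases.
Tbx3 reference probe: ggcatcttactaacccatgtgaggttttca
Tbx3 second probe: gccattctgaaatattctttacgtttagtt
With slide as a block, which sets the #620 lines against RF8 alone, the difference of the reference probe was 3.26. The second probe, well above background in the #620 lines alone, gives bounds only, so no result of this fit is read from it. Without RF8 the difference of the reference probe was 1.83 (limma, adjusted p = 0.114).

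Nanog was higher by 1.02 in the lines labelled female, with an interval from -0.10 to 2.14 (limma, adjusted p = 0.307). Pou5f1 was higher by 0.35 (interval -0.02 to 0.73), Esrrb by 0.61 (interval -0.31 to 1.54) and Tfcp2l1 by 0.71 (interval -0.97 to 2.38). Sox2 differed by 0.07 (interval -0.47 to 0.62) and Sall4 by -0.32 (interval -0.76 to 0.12). No difference of these 6 factors passed the test.

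**Figure D4:**
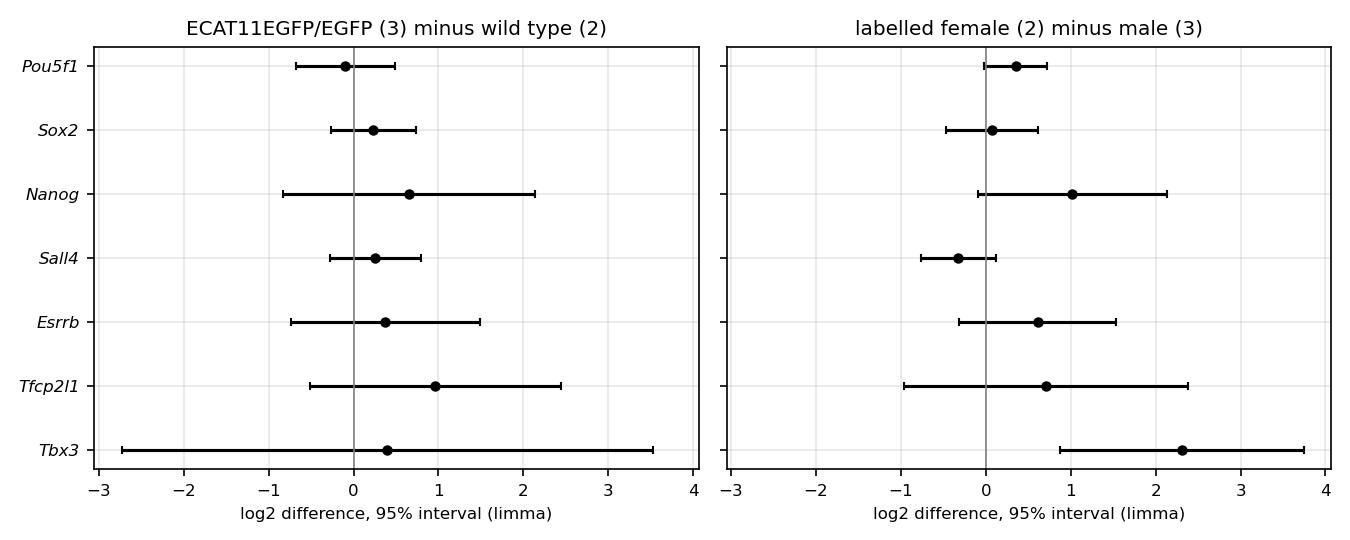
Log2 difference of each reference probe between genotypes (left) and between sex labels (right), with 95% intervals from limma over 5 lines. No factor was called in either comparison, and the interval of Tbx3 by sex label, from 0.88 to 3.74, is the one that lies away from 0.

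Other regulators of the naive state did not share 1 pattern with the members. Of 18 on the list, 17 had a probe, and Prdm14 is not analysed here. All 17 were well above background in the 5 lines, and 0 were called between genotypes or sex labels. Their median genotype difference was -0.07, against -0.02 over all kept probes, while the 7 members had 0.37. The members' median rested on RF8: without it the median was -0.062 for the members and -0.24 for the list. RF8 was lowest in 2 of the 17 and highest in 4, against 21.3% and 5129 of 20622 probes well above background in every line. Both #620 lines were highest on 5 and lowest on 4, against 17.5% and 4837 of 20622. Klf4 had the line order of Tbx3, with 4.15 in RF8, 6.87 in #620-2, 6.15 in #620-6, 4.77 in #757-1 and 5.02 in #757-2. By sex label it differed by 1.86 (limma, adjusted p = 0.119). In limma 6 of the 17 passed an unadjusted p under 0.05 by sex label, where 18% of all probes did. The highest genotype difference on the list was that of Dppa3, a maternal factor of germ cells and naive ESCs, which was at 3.44 in RF8, 2.02 in #620-2, 3.71 in #620-6, 4.80 in #757-1 and 4.73 in #757-2. The 3 knock-in lines lay above both wild-type lines, by 1.68 on average (limma, adjusted p = 0.61). The lowest was that of Zfp42 (Rex1), a zinc finger protein long used as an ESC marker, at 7.0 in RF8, 6.80 in #620-2, 4.01 in #620-6, 6.56 in #757-1 and 3.87 in #757-2. Both low lines were knock-in lines, and the third knock-in line, #757-1, was near the wild-type lines. The difference was -2.09 (limma, adjusted p = 0.721). Genotype groups did not overlap on 5 of the 17 genes, Dppa3 and Zfp42 among them, against 23.1% of all probes well above background.

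Of 12 listed genes that the Pou5f1-Sox2 pair is known to activate, 11 had a probe, Fgf4 not being analysed here, and 0 were called in either comparison. The median genotype difference was 0.03. Spp1 (osteopontin) was between 5.93 in RF8 and 6.69 in #620-6, Utf1, a chromatin-bound factor, between 1.62 in #620-6 and 2.29 in #620-2, and Lefty1, a Nodal antagonist, between 4.02 in #620-6 and 4.70 in RF8. Fbxo15, an F-box protein that is dispensable in ESCs, had the highest genotype difference of the list, 1.23. It was at 4.93 in RF8, 4.13 in #620-2, 5.61 in #620-6, 5.79 in #757-1 and 5.88 in #757-2. The groups thus did not overlap, as on 4 of the 11 genes and on 23.1% of all probes well above background. Fbxo15 was not called (limma, adjusted p = 0.471). The lowest difference was -0.78, in Tdgf1 (Cripto), the Nodal co-receptor (limma, adjusted p = 0.66).

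Relatives of the members were examined as well. Of 17 genes of the POU, SOX, SALL, ESRR, TFCP2 and TBX families, 14 were kept and 9 were well above background in all 5 lines. Between genotypes 0 were called, and the median difference was -0.31. It was -0.042 without RF8, -0.069 with normexp background correction and -0.089 with slide as a block, and between -0.23 and -0.18 without any 1 of the other lines. The highest was that of Sox15, a SOX protein of ESCs, at 0.65 (limma, adjusted p = 0.743), and the lowest that of Pou3f1 (Oct6), a POU factor of the primed epiblast, at -0.70 (limma, adjusted p = 0.893). Between sex labels, Sall3 was called on its second probe, which was well above background on 3 of 5 arrays (2.00 ± 0.15, SE, limma adjusted p = 0.0364), and not on its reference probe (1.90 ± 0.27, SE, limma adjusted p = 0.087). The call was lost with genotype as a covariate (limma, adjusted p = 0.0729) and with any line left out (0.0708 to 0.212). Its reference probe was at 0.25 and 0.50 in the #620 lines and between -1.86 and -1.09 in the others, while the reference probe of Sall4 was lowest in the #620 lines.

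The 11 subunits of the NuRD complex, a histone deacetylase and chromatin remodelling complex that associates with Nanog, Pou5f1 and Sall4, were well above background in all lines, and 0 were called. Their median genotype difference was 0.09, between -0.17 for Chd4, the remodelling ATPase, and 0.40 for Mta3.

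The genes whose profile over the lines was nearest to that of a variable factor were found by the root mean square distance between centred profiles, over 5 lines and 14064 genes well above background in all of them. For Nanog these were Qpct (0.05 on the log2 scale), Btbd11 (0.09) and 1700007K13Rik (0.09). For Esrrb they were Slc29a1 (0.06), Trerf1 (0.07) and Ccpg1 (0.09), and for Tfcp2l1 they were Esx1 (0.06), Med29 (0.11) and Mindy4 (0.11). For Tbx3 the nearest were farther, Vwa3b at 0.16, Ppp1r14d at 0.23 and BC034076 at 0.30. Among the members, the profile of Nanog was 0.30 from that of Esrrb and 0.33 from that of Tfcp2l1, and Tbx3 was at least 0.69 from each of the other 6. With 5 points per profile and this many genes, near profiles are found for most shapes.

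Markers of other cell types differed between the same lines. Genes of the primed epiblast, the state that follows the naive one, had a summed signal (in units of the 75th percentile, reference probes of 6 genes) of 75.4 in RF8, 48.5 in #620-2, 20.8 in #620-6, 49.1 in #757-1 and 54.5 in #757-2, and such a sum follows its brightest probe, here Pou3f1. Without Pou3f1 it was 7.84 in RF8, 8.15 in #620-2 and between 5.25 and 5.37 in the others. RF8 was highest for Otx2, at 1.99 against -0.53 to 0.92 in the others, while Fgf5 was at -0.50 in RF8, below both #757 lines at 0.23 and -0.04. Of the primed epiblast genes 0 were called in either comparison. By sex label 5 of the 6 passed an unadjusted p under 0.05 in limma, where 18% of all probes did. Their median difference was -1.31, with both #620 lines lowest on 4 genes (Fgf5, Otx2, Pou3f1 and T) and highest on 2 (Wnt8a and Lef1). Over all probes well above background on the 5 arrays, 4837 of 20622 had both #620 lines lowest and 3615 had both highest. The extremes of the genotype difference were Fgf5, at 0.31, and Wnt8a, at -1.12. The summed signal of 5 neural genes was 11.3 in RF8 and between 5.63 and 9.60 in the other lines, with Nes at 2.12 in RF8 and -0.84 to 1.42 in the others. The neural extremes were Tubb3, at 0.22, and Zic1, at -0.49. The part of these genes in the low levels of RF8 was not tested.

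The #620 lines, in which Tbx3 and Nanog were highest, had more signal of S100a4 and of primitive endoderm genes. The 6 primed epiblast genes were split, 4 being lowest and 2 highest in the #620 lines. The summed signal of 9 fibroblast genes was 58.5 in #620-2 and 61.2 in #620-6, against 16.5 in RF8, 2.74 in #757-1 and 5.07 in #757-2. Most of it came from S100a4, a calcium-binding protein of fibroblasts and other migratory cells, which was called between sex labels: it was at 5.61 and 5.70 in the #620 lines and between -1.66 and -0.06 in the others (difference 6.70, limma adjusted p = 0.0404). The call was lost with genotype as a covariate (limma, adjusted p = 0.0729) and without #620-2, #620-6, #757-1 or #757-2 (0.157 to 0.224). Without S100a4 the sum was highest in RF8, at 15.5, against 9.62 and 9.19 in the #620 lines and 2.42 and 4.69 in the #757 lines. The collagen gene Col1a1, the brightest of the list in RF8, was highest there instead, at 2.98 against 0.00 to 1.15. Lum was well above background on 2 of the 5 arrays. Gene by gene, 7 of the 9 were higher in the lines labelled female, with a median difference of 1.68, against -0.02 over all kept probes. Of the 8 genes well above background in all lines, 4 had both #620 lines highest and 1 had both lowest. Of all such probes, 17.5% had both highest. Between genotypes the fibroblast genes ran from -2.03 for Col1a2 to 0.16 for Postn, with 0 called.

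Of 10 kept probes of 7 primitive endoderm genes, 2 were called between sex labels, those of Pdgfra and Sox17, where 0.342% of all probes were. Neither was well above background in #757-1 or #757-2, so this count is not read against that share. Pdgfra, a growth factor receptor of primitive endoderm and mesenchyme, was at -1.98 and -1.94 in the #620 lines and not well above background in the other 3 (limma, adjusted p = 0.00993). Its probe passed the filter through the #620 lines alone, so this call is not read as support. Sox17, an endoderm SOX factor, was at -2.64 and -2.99 in the #620 lines and between -4.99 and -4.92 in the others (limma, adjusted p = 0.0364). It was not well above background in #757-1 and #757-2. With genotype as a covariate both calls were lost (limma, adjusted p = 0.0531 for Pdgfra and 0.0731 for Sox17). That of Pdgfra was also lost without #620-2, #620-6, #757-1 or #757-2 (0.0855 to 0.181), and that of Sox17 without any 1 line (0.0713 to 0.191). Gata6 was at -1.35 and -2.29 in the #620 lines and between -3.68 and -3.07 in the others, while Gata4, a defining gene of the lineage, was well above background on 3 arrays and between -5.90 and -5.11. The list's summed signal was 1.60 and 1.41 in the #620 lines and between 0.571 and 0.621 in the others. Between genotypes the list ran from -0.95 for Gata6 to 1.22 for Sox7, with 0 called. Of 6 trophoblast genes 0 were called in either comparison. Cdx2, the trophoblast regulator that Pou5f1 holds down, was well above background on 3 arrays and lay between -5.68 and -4.40. It had the lowest genotype difference of that list, -0.69, and Gata3 the highest, 2.19, with 0.90 in #620-6 (limma, adjusted p = 0.481). The part of the primed epiblast, fibroblast and endoderm genes in the levels of Tbx3 and Nanog in the #620 lines was not tested.

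**Figure D5:**
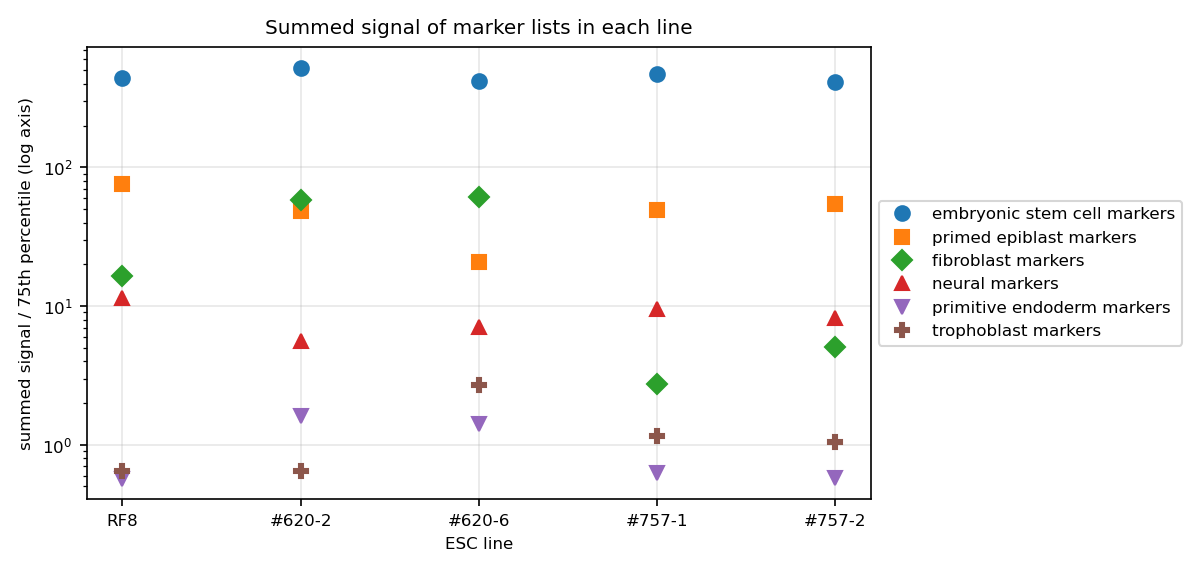
Summed signal of the marker lists in each line, in units of the array's 75th percentile, on a log axis (reference probes, 5 to 9 genes per list). ESC markers lie between 414 and 525 in all lines, a sum that follows its brightest gene, Dppa5a. Without Dppa5a it is 172 in RF8, 181 in #620-2, 82.6 in #620-6, 149 in #757-1 and 68.5 in #757-2. The fibroblast markers near 60 in the #620 lines follow S100a4, without which RF8 is highest at 15.5.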

How the data were processed

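The authors hybridized Cy3-labelled RNA of 5 ESC lines to Agilent arrays, and the file headers name Feature Extraction 9.5.3.1. They deposited spot intensity values, background-corrected and not normalized between arrays, and a table of log2 values centred per probe. From the background-corrected intensities of 45018 spots, 1639 control spots were left out, outlier-marked spots (0.335%) were made missing, values were scaled to the array's 75th percentile following the authors' methods, and the log2 values of a probe's spots were averaged. Probes Present on at least 1 array were fitted with limma 3.58.1 in R 4.3.3, tested on simulated data first, with Benjamini-Hochberg adjustment over all 28972 probes. No exact permutation test of 2 against 3 lines can give a p under 0.1. Arrays carry no read depth, and their number limits the precision. Groups follow the labels. Nothing states separate cultures beyond the clones. Named genes were all members, the best-known targets, lineage genes, called list genes and each list's genotype extremes. Members and lists were chosen with earlier results of these data known. Alternatives were normexp (offset 50), quantile normalization, the deposited table, other filters, the variance trend, the methods' t-test, covariates, slide and leaving out each line. Names came from RefSeq (GRCm38.p6), and figures from matplotlib 3.10.9.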

Additional observations from a re-analysis of the deposited data

How the results depend on the processing

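Of 140 differences of the members' reference probes recomputed under other settings with all 5 lines, 138 kept their sign and stayed uncalled. Filters, keeping outlier-marked spots, the variance trend and the methods' t-test left these differences unchanged. In those settings a sign could not turn, and only the calls were open. The 2 that turned sign did so with slide as a block between genotypes, Pou5f1 to 0.067 and Sall4 to -0.012. With slide as a block the second probe of Tbx3 was called between sex labels. That probe was well above background in the #620 lines alone, so the call is not read as a result. Of 70 differences with 1 line left out, 6 turned sign: between genotypes Nanog (range over lines left out -0.062 to 1.36), Esrrb (-0.26 to 1.01) and Tbx3 (-1.24 to 2.03) at their lowest without RF8, Tbx3 also without #620-6 (-0.21), and Pou5f1 (-0.34 to 0.15) without #620-2, and between sex labels Sox2 (-0.082 to 0.19) without RF8. The range of member calls over lines left out was 0 to 0 in both comparisons. The cause was not tested. Over all probes, genotype calls were 1, and 0 with normexp, quantile normalization, no filter, the stricter filter, the methods' t-test, slide, sex label or any line left out. Sex-label calls were 99. A variance trend gave 302, normexp 287, quantile normalization 207, slide as a block 149, no filter 27, the methods' t-test 2, and there were 0 with genotype as a covariate and 0 without #620-2, #620-6, #757-1 or #757-2. The counts of members with RF8 lowest and with the #620 lines highest, recomputed under other settings chosen after seeing the data, did not move. The sums without the brightest gene, the members' median and the called list genes under other settings were also chosen then. No paired analysis was possible because the replicate numbers follow accession order and pair no lines. Dim probes, such as the second of Tbx3, give bounds only.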
